A study of Mus musculus with 96 samples.

Results

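Krt6a, Krt6b, Krt16 and Krt17, the keratin genes that stratified epithelia turn on after wounding, were followed in horizontal basal cells (HBCs), the reserve stem cells of the mouse olfactory epithelium (OE). The members were the rows of the deposited count matrix that carry these symbols, which gave 4 of its 55487 genes, each measured in 96 single cells that form 48 pairs of sister cells. All cells were of wild-type genotype and belonged to 1 condition, with no untreated or uninjured group. HBCs were taken from adult mice of 6 to 8 weeks, 2 days after an injection of methimazole, a drug that strips the OE of its other cells, and were grown as primary cultures on a coated dish. After a division both daughters were picked by mouth pipette, and the polyA RNA of each was sequenced with ERCC spike-ins, synthetic RNAs added to every cell. The series set daughters side by side to ask whether they leave the division with different transcripts. The labels name no mouse or culture for a cell, so the 96 cells were treated as 1 sample without replicates and no p-value is given. Intervals therefore cover the counting of pairs only.

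Keratins build the intermediate filaments of epithelial cells as obligate pairs of a type II and a type I protein. Krt6a and Krt6b are type II keratins, and Krt16 and Krt17 are type I keratins with which they pair. In skin these genes are low in the resting interfollicular epidermis and high in wound-edge keratinocytes, hair follicles and other sites of stress, and for that reason they are called stress keratins. Krt5 (type II) and Krt14 (type I) form the standing pair of basal cells, HBCs included.

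The 2 type II genes are near-copies that lie next to each other, and their sequences are shown because they decide how far reads can tell them apart. On GRCm38, Krt6a (ENSMUSG00000058354) covers chr15:101689910-101694307 and Krt6b (ENSMUSG00000023041) chr15:101676023-101680287, both protein-coding on the minus strand with 9 exons. In the transcripts of GENCODE M21, over 1659 aligned coding bases, they were 97.8% identical, and the longest run without a difference was 280 bases, inside exon 1 of both genes. Its first 120 bases, at chr15:101694096-101694215 in Krt6a and chr15:101680071-101680190 in Krt6b, read the same in both genes, with no capitals because nothing differs:
Krt6a and Krt6b: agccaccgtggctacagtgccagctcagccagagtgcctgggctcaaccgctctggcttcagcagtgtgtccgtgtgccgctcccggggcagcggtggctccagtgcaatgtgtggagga
The 60 coding bases in which they differed most, in exon 4, held 10 mismatches. Capitals mark them in the lines for Krt6a (chr15:101692484-101692543) and Krt6b (chr15:101678303-101678362):
Krt6a: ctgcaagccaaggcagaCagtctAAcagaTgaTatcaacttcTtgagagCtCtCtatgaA
Krt6b: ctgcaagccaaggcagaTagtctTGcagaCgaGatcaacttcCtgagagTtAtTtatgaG
Of all windows of 150 bases, the read length, along the Krt6a transcript, 18.5% also occurred in Krt6b, and 18.8% of those of Krt6b occurred in Krt6a. For windows of 75 bases the shares were 36.2% and 36.9%. Smaller shares of the 75-base windows of Krt6a occurred in its neighbour Gm5478 (6.44%), in Gm5414 (1.41%) and in Krt5 (4.54%).

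The type I genes are more distant from each other. Krt16 (ENSMUSG00000053797) covers chr11:100246091-100248902 and Krt17 (ENSMUSG00000035557) chr11:100256217-100261029, again protein-coding on the minus strand, with 8 exons each. Their coding sequences were 75.8% identical, and the 90 bases in which they were most alike, in exon 1 of both, still held 4 mismatches. These bases are shown, with mismatches in capitals, for Krt16 (chr11:100248456-100248545) and Krt17 (chr11:100260618-100260707):
Krt16: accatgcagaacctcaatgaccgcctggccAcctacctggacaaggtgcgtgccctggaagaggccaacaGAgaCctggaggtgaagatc
Krt17: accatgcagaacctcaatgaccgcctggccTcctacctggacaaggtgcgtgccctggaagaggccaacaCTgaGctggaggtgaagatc
No window of 75 bases was shared by Krt16 and Krt17, and none of Krt17 occurred in the other genes compared, which were Krt5, Krt14, Krt42, Krt75, Krt6a, Krt6b, Gm5478, Gm5414 and Gm11597. Krt16 shared 18.4% of its 150-base windows with Gm11597, an unprocessed pseudogene at chr11:100228845-100232078. It shared 6.44% of its 75-base windows, but no 150-base window, with Krt14. Values of Krt6a, Krt6b, Krt16, Gm5478, Gm5414 and Gm11597 are therefore uncertain wherever their shared reads could be split.

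The libraries were deep, with 29454150 to 44849003 gene counts per cell (median 36152760), and 11403 to 14632 genes had a count. ERCC reads made up 1.06% to 5.75% of a library and mitochondrial genes 1.12% to 3.84% of the gene counts. No cell was a copy of another, since the highest Pearson correlation between any 2 cells on log2 counts was 0.733. The basal markers Trp63, which encodes the basal cell regulator p63, Krt5 and Krt14 were counted in all 96 cells, with lowest counts of 37, 6760 and 691. Markers of the other types that OE can hold were at most 59.5 CPM (counts scaled to the library total, summed over the list) for globose basal cells, sustentacular cells, microvillar cells, olfactory neurons, ciliated cells, fibroblasts, endothelial cells and ensheathing glia. Kit, Cyp1a2, Ermn, Foxi1, Stmn2, Cnga2, Tekt1, Dcn, Cdh5 and Fabp7, which are markers of some of these types, had no count in any cell. Other markers of the same lists were counted. The sustentacular marker Sox2 was in all 96 cells, with a median of 572.5 counts, and Pecam1 was in 92. Gap43 was in 22 cells, Gng13 in 16, Pdgfra in 15 and Lgr5 in 14. The lists that went above that level were those of Bowman gland and immune cells. Their markers included Aqp5, counted in all 96 cells, and the lysosomal immune marker Cd68, with up to 11064 counts.

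One cell stood apart from the rest. Sister 2 of pair 4 was the lowest of the 96 cells, in CPM, for all 4 stress keratins, for Krt5 and Krt14, and for Krt19, Sfn, Itga6, Itgb4, Lamb3 and Cd44. It was the highest cell for the small proline-rich gene Sprr2a1 (1151928 counts), for the olfactory detoxification genes Cyp2a5 (259709 counts) and Ugt2a1 (174005 counts), and for Nupr1, Aqp5 and Cd68. It also had the highest mitochondrial share, 3.84%. Of the 5 sustentacular markers Sox2 alone was counted in it, and no globose basal, microvillar, neuronal, ciliated or glial marker was. Its sister was, in the same unit, the highest cell for Krt6a, Krt6b and Krt16, and its Krt17 was 9294 CPM against a median of 4281. The part of cell type or RNA quality in this pair was not tested, and the levels, spreads, intraclass correlations and correlations between members are given with and without it.

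Krt6a was one of the most abundant transcripts of these cells and ranged widely. Its spike-in normalized count (count divided by a size factor from 22 ERCC transcripts) was 613 in the lowest cell, 162665 in the median cell and 775989 in the highest. The lowest and the highest were the sisters of pair 4, and without them the range was 1619 to 558715. In TPM, the deposited unit that is scaled for transcript length and library, the median was 2801, which put Krt6a at rank 35 of all genes, and 84 of 96 cells reached 1000 TPM. The gene was thus present in every cell, and the cells between the 10th and the 90th percentile spanned 9.55-fold.

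Krt6b followed at a much lower level. Its normalized count was 42.7 in the lowest cell, 11878 in the median cell and 106592 in the highest, again the sisters of pair 4, and without them the range was 116 to 47592. The median TPM was 223.1, at rank 639, and Krt6a was above Krt6b in all 96 cells, by a median TPM ratio of 13.2. Between the 10th and 90th percentiles Krt6b spanned 10.1-fold, close to the span of its neighbour.

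Krt16 was the gene of the widest spread. Its normalized count was 2.71 in the lowest cell, from 4 counts, 979.6 in the median cell and 92376 in the highest. These extremes too were the sisters of pair 4, and without them the range was 6.88 to 45956. The median TPM was 33.8, at rank 3506. Of the 96 cells 92 reached 1 TPM, 61 reached 10 TPM, 19 reached 100 TPM and 2 reached 1000 TPM. Between the 10th and the 90th percentiles the cells spanned 114-fold. The SD of log2(CPM + 1) was 2.45 for Krt16, larger than for 93.3% of the 14463 genes that had at least 10 counts in at least 10 cells. The same SD was 1.52 for Krt6a, 1.55 for Krt6b and 1.17 for Krt17, where the median gene had 1.58, so the other 3 members were about as variable as a typical gene or less. Without pair 4, the SD was 1.33 for Krt6a, 1.37 for Krt6b, 2.34 for Krt16 and 0.88 for Krt17.

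Krt17 had the highest median TPM of the keratins. Its normalized count was 521 in the lowest cell, 149769.9 in the median cell and 840783 in the highest, which was sister 1 of pair 46. Only sister 2 of pair 4 was far below the others, since the next lowest cell, sister 1 of pair 14, had 14372. The median TPM was 4647, at rank 16, and 91 cells reached 1000 TPM. The 10th and 90th percentiles lay 7.49-fold apart, the narrowest span of the 4 genes.

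**Figure D1:**
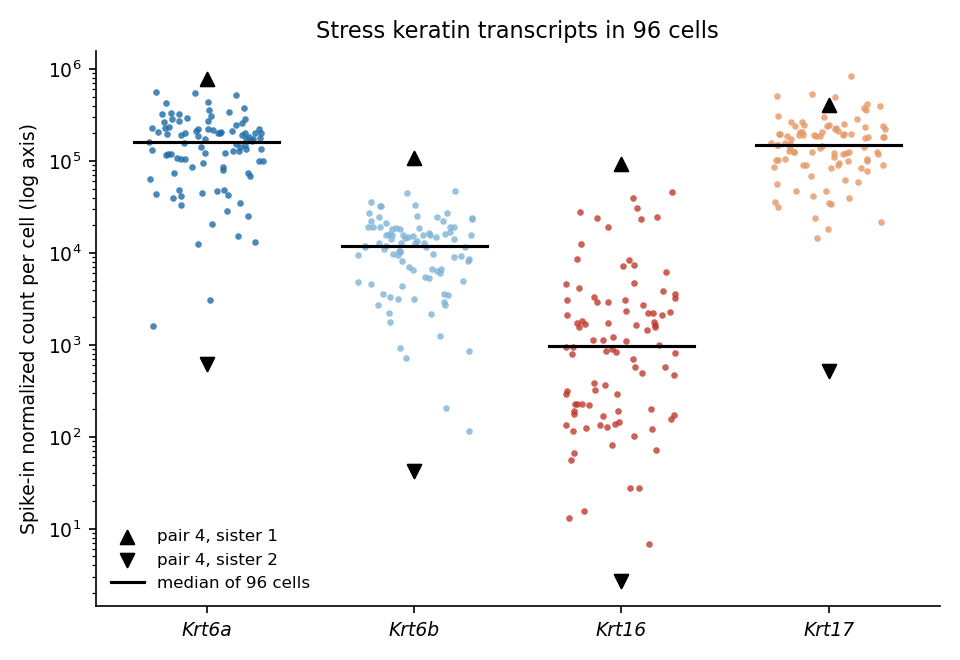
Spike-in normalized counts of Krt6a, Krt6b, Krt16 and Krt17 on a log axis, 1 point for each of 96 cells, with the median as a bar and the sisters of pair 4 as black triangles. Sister 2 of pair 4 is the lowest point of each gene, and Krt16 spreads from 2.71 to 92376.

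In TPM, which allows genes to be compared, the order of medians among the members and the basal pair was Krt17, Krt14, Krt6a, Krt5, Krt6b and Krt16. Neighbours in that order overlapped widely. Krt17 was above Krt14 in 63 of 96 cells, Krt14 above Krt6a in 62 and Krt6a above Krt5 in 71. Krt17 was above Krt6a in 72 cells, with a median ratio of 1.46. The step down to Krt6b was clear, as Krt5 was above Krt6b in all 96 cells. Krt6b was above Krt16 in 86 cells.

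The stress keratins made up a large part of the keratin transcripts. Of 54 genes named Krt and a number, 47 had a count in some cell and 7 had a median of at least 1000 TPM. The 10 with the highest medians were Krt17, Krt14, Krt6a, Krt5 and the simple-epithelial keratins Krt19 (1894 TPM), Krt18 (1394 TPM), Krt8 (1220.0 TPM) and Krt7 (254 TPM), followed by Krt6b and Krt23 (56.7 TPM). The 4 members together took 0.645% of the keratin TPM of the lowest cell, 41.2% of that of the median cell and 62.0% of that of the highest. The lowest was sister 2 of pair 4, and without that pair the lowest share was 10.5%, in a cell of pair 19. The median share was 15.5% for Krt6a, 1.18% for Krt6b, 0.157% for Krt16 and 22.2% for Krt17. In CPM, which is not scaled for length, the order of the leading members turned, with 19.9% for Krt6a and 18.9% for Krt17.

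The type II and type I stress keratins were unequal in most cells. The TPM of Krt6a and Krt6b over that of Krt16 and Krt17 had a median ratio of 0.729, with 0.277 and 1.53 at the 10th and 90th percentiles, and extremes of 0.0277 and 3.96. Over 5 genes of each type, the members among them, the ratio was 0.602, with 0.401 and 0.870 at the same percentiles. These were Krt5, Krt6a, Krt6b, Krt7 and Krt8 against Krt14, Krt16, Krt17, Krt18 and Krt19.

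**Figure D2:**
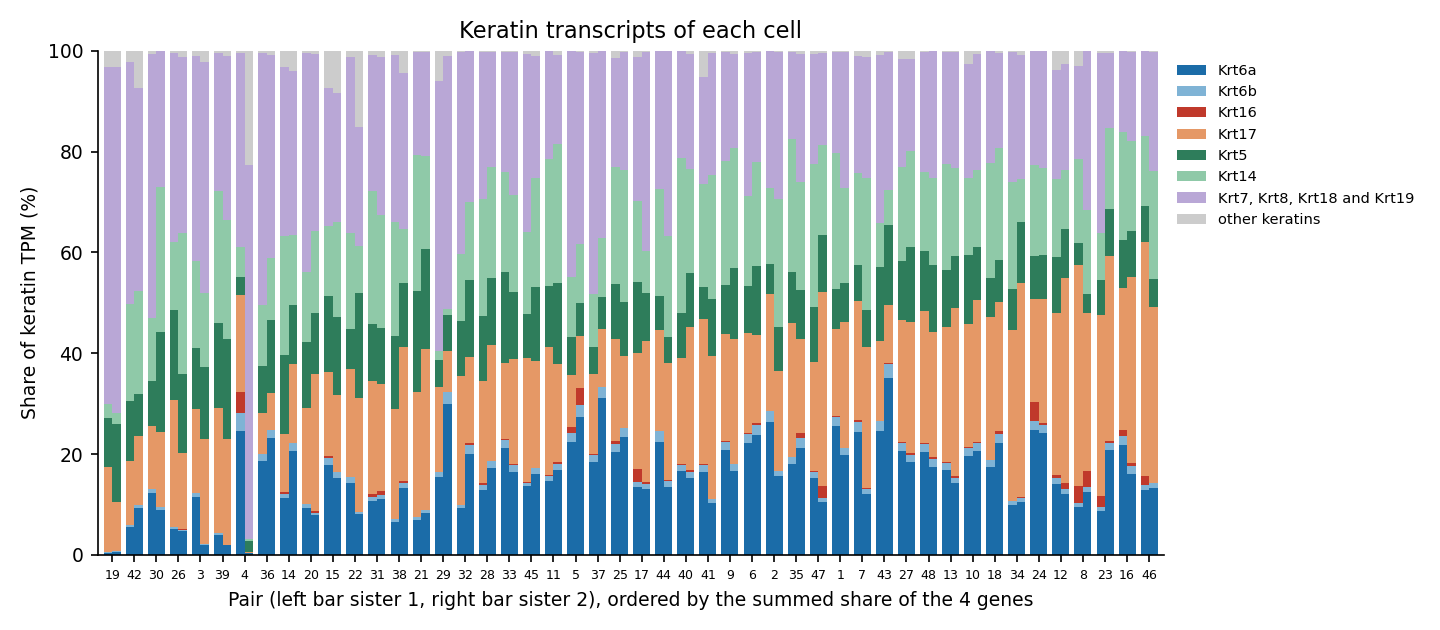
Share of each cell's keratin TPM (%) taken by the 4 stress keratins, Krt5, Krt14, the simple-epithelial keratins and all others, for 48 pairs ordered by the summed share of the 4 stress keratins, with the bar of sister 1 at the left. The 4 genes take 41.2% in the median cell, and sister 2 of pair 4 holds 0.645%.

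Sisters were compared by the ratio of the higher to the lower normalized count, each plus 1, with the 1.5-fold cutoff that the study used for asymmetry. Krt6a, Krt6b and Krt17 were close in most pairs, and Krt16 was not. The median ratio was 1.44 for Krt6a, 1.44 for Krt6b, 3.85 for Krt16 and 1.40 for Krt17. Of the 14463 genes tested, 78.4% had a median ratio of 1.5 or more, and the median over these genes was 2.39. The median ratio of Krt16 was above that of 67.2% of them, so it was not unusual among genes. Those of Krt6a, Krt6b and Krt17 were above 18.8%, 18.6% and 17.2%. Of the 4 members, 1 was past the cutoff in its median. Genes of low count enter this background. The 22 ERCC transcripts, which were added to each cell from outside, had median ratios of 1.08 to 1.92. Their mean normalized counts were 1196 to 281325. Krt16 had 979.6 in its median cell and 192.6 at the lower quartile, so these transcripts give no measure of noise at its low counts.

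In counts of pairs, Krt6a was at 1.5-fold or more in 21 of 48 pairs (43.75%, exact Clopper-Pearson 95% interval 29.5% to 58.8%), and so were Krt6b and Krt17, each in 21. Krt16 reached it in 37 pairs (77.1%, interval 62.7% to 88.0%). Across the genes tested the median share was 68.75% of pairs. Across ERCC transcripts, all of them above the median Krt16 cell in mean count, it was 21.9%, with a range of 0% to 70.8%. At 2-fold the counts were 13 for Krt6a, 15 for Krt6b, 31 for Krt16 and 5 for Krt17. At 10-fold, 15 pairs remained for Krt16 and 1, pair 4, for each of the others. Few divisions gave daughters that differed in Krt17 by more than 2-fold.

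The largest ratios were in pair 4 for every member. Its sisters had 775989 and 613 normalized counts of Krt6a (1263-fold), 106592 and 42.7 of Krt6b (2440-fold), 92376 and 2.71 of Krt16 (24895-fold) and 410993 and 521 of Krt17 (787-fold). The same sisters differed 288-fold in Krt14, 23.8-fold in Krt5 and 7.80-fold in Trp63, and the median over all genes tested in this pair was 3.09-fold, the largest of the 48 pairs. Mki67, the proliferation marker, was low in both, at 2.83 and 3.11 CPM against a median of 452 CPM over all cells.

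Outside pair 4 the pairs with the largest ratios differed from gene to gene. Pair 3 led for Krt6a with 104845 against 12486 normalized counts (8.40-fold), and its Krt6b ratio was 9.36-fold, while its Krt17 ratio was 1.15-fold. Pair 29 followed with 24929 against 183378 of Krt6a (7.36-fold) and 1796 against 14217 of Krt6b (7.91-fold). In Krt16, pair 46 had 30683 against 574 (53.4-fold), and its Krt6a ratio was 1.48-fold. Pair 25 had 8669 against 363 of Krt16 (23.8-fold) and 1.11-fold for Krt6a. Krt17 had no ratio above 2.31-fold, in pair 30, with 47301 against 109238 normalized counts. Pair 22 came next with 206137 against 91342 (2.26-fold). Pair 46 was also the pair in which Trp63 was 29368 against 68.5 and Mki67 95.7 against 33495, with the higher Krt16 in the sister of higher Trp63 and lower Mki67.

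**Figure D3:**
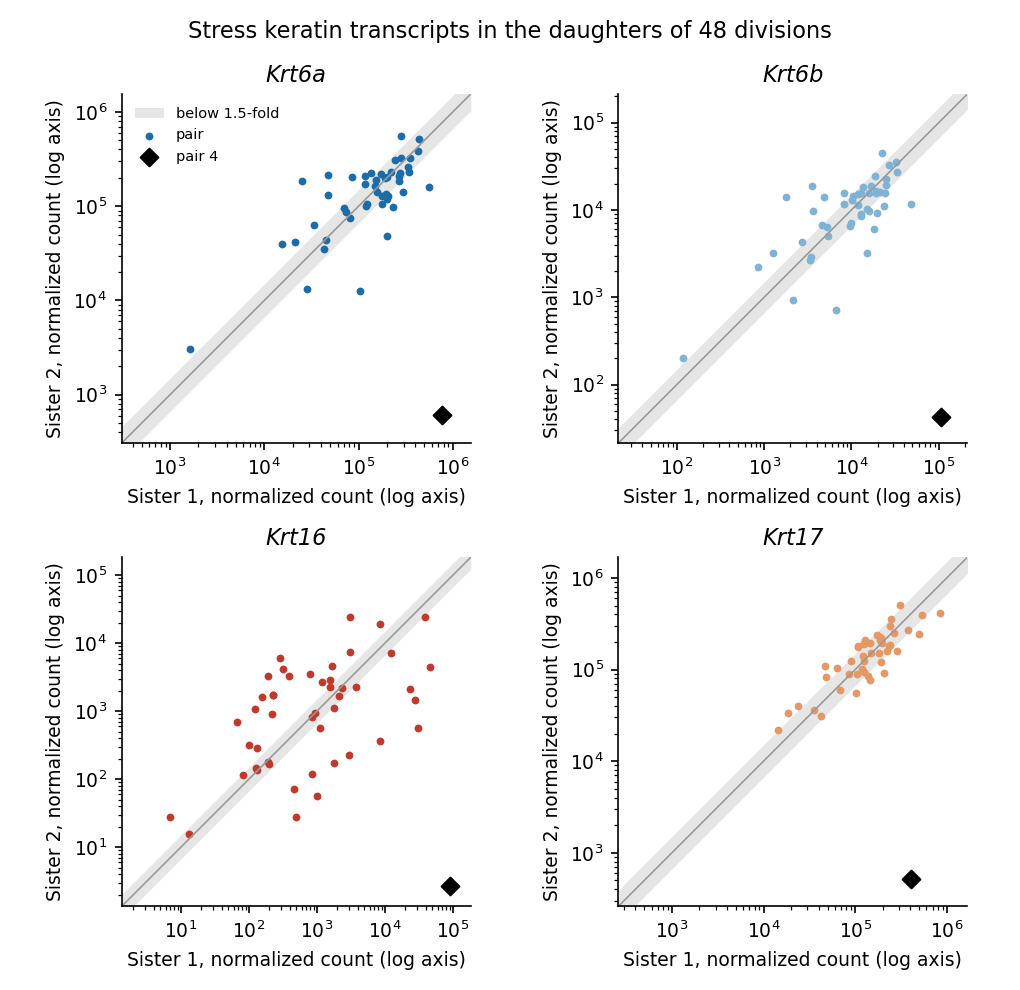
Spike-in normalized counts of sister 2 against sister 1 on log axes for each gene, 1 point per pair, with the grey band marking ratios below 1.5-fold and pair 4 as a diamond. Krt17 lies closest to the diagonal, with 5 of 48 pairs at 2-fold or more, and Krt16 farthest from it, with 31.

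Large Krt16 differences came both with and without differences in the other members. In the 15 pairs at 10-fold or more in Krt16, the higher sister had a median of 4195 normalized counts and the lower a median of 225. In these pairs 7 were at 1.5-fold in Krt6a and 9 in Krt17, and the sister higher in Krt16 was also the higher one for Krt6a in 9 and for Krt17 in 8. In the 33 other pairs, 14 were at 1.5-fold in Krt6a and 12 in Krt17. Of the 19 cells at 100 TPM of Krt16 or more, 8 were the sisters of 4 pairs and 11 had a sister below 100 TPM. Those 11 sisters had 0.0925 to 69.4 TPM, with a median of 33.8.

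Counting over pairs, all 4 members were at 1.5-fold in 7 pairs, none was in 4 pairs, and Krt16 alone was in 12. Krt6a and Krt6b passed together in 20 of their 21 pairs. Krt6a and Krt17, each past it in 21 of 48 pairs, passed together in 10 pairs, of 32 in which either did. All 4 were higher in the same sister in 18 of 48 pairs. Krt6a and Krt6b agreed in 45 of 48 and so hardly count as separate genes here. The overlap that unrelated genes would give was not computed, so these counts are descriptions only.

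Levels were partly shared by sisters. The intraclass correlation of log2(CPM + 1), the share of the variance over cells that lies between pairs, was 0.38 for Krt6a, 0.34 for Krt6b, 0.32 for Krt16 and 0.29 for Krt17, where the median gene had 0.11. With all pairs kept, these were above 89.6%, 86.6%, 84.1% and 81.5% of the genes tested. Genes of low count enter this background. Pair 4 held the correlations down. Without it they were 0.71, 0.69, 0.47 and 0.79, above 99.5%, 99.3%, 94.6% and 99.8% of the genes recomputed without that pair. Pair 4 was singled out for its extreme values of these same genes, so the higher places are descriptions only. Pair 19 held the correlations up for Krt6a and Krt6b, because both of its sisters were very low. They had 1619 and 3072 normalized counts of Krt6a and 116 and 204 of Krt6b. Without pair 19 and with pair 4 kept, the correlation was 0.12 for Krt6a and 0.10 for Krt6b. Both sisters of pair 19 had 15 raw counts of Krt16, and 84880 and 76584 of Mki67. Their raw counts of Krt17 were 47950 and 29894 against a median of 151331.5 over all cells, and those of Krt14 were 8350 and 7327 against a median of 135243. All 4 members and Krt14 were thus below their medians in both cells.

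The cells lay in 12 sets of 8 in the numbering of the deposited files, with 4 whole pairs to a set. What a set stands for is not given. The median of a set ran from 135 to 6556 normalized counts for Krt16 and from 65483 to 315757 for Krt17, and 24.1% and 16.8% of the variance of log2(CPM + 1) lay between sets. For Krt6a and Krt6b the share was 16.2% and 15.5%. Any grouping of whole pairs puts some variance between sets, and these shares were not compared with random groupings. The set and the pairs in it cannot be told apart. With cells centred on the mean of their set, the intraclass correlations were 0.26 for Krt6a, 0.22 for Krt6b, 0.097 for Krt16 and 0.15 for Krt17. Centring takes out variance between pairs even where sets do not matter, so these lower values do not measure a set effect.

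Krt6a and Krt6b varied together. Their Spearman correlation of log2(CPM + 1) over 96 cells was 0.99, and that of the differences between sisters over 48 pairs was 0.97. Cells share depth and pairs, so all correlations here are descriptions. Krt6b counts were 7.45% of Krt6a counts in the median cell, 6.64% and 8.15% at the 10th and 90th percentiles, and 5.53% to 13.7% over all cells. The top ratio was that of sister 1 of pair 4, with 108106 against 787008 counts, and the next was 10.1%. The higher sister was the same for both genes in 45 of 48 pairs. How much of this comes from reads that the genes share was not tested, and with both genes summed 21 pairs again reached 1.5-fold.

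The other combinations of members, type II with type I and the type I genes with each other, were more loosely tied. Over cells, rho was 0.44 for Krt6a and Krt16, 0.46 for Krt6a and Krt17, 0.46 for Krt6b and Krt16, 0.45 for Krt6b and Krt17 and 0.58 for Krt16 and Krt17. Over sister differences, the same values were 0.22, 0.43, 0.21, 0.41 and 0.23. Without pair 4 they were 0.40, 0.43, 0.42, 0.42 and 0.55 over cells and 0.17, 0.40, 0.16, 0.37 and 0.18 over sister differences. The link of Krt16 to the other members was thus weaker within pairs than over cells, though the difference between the correlations was not tested. Krt17 counts ranged from 18.4% to 2590% of Krt6a counts, with a median of 99.4%.

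**Figure D4:**
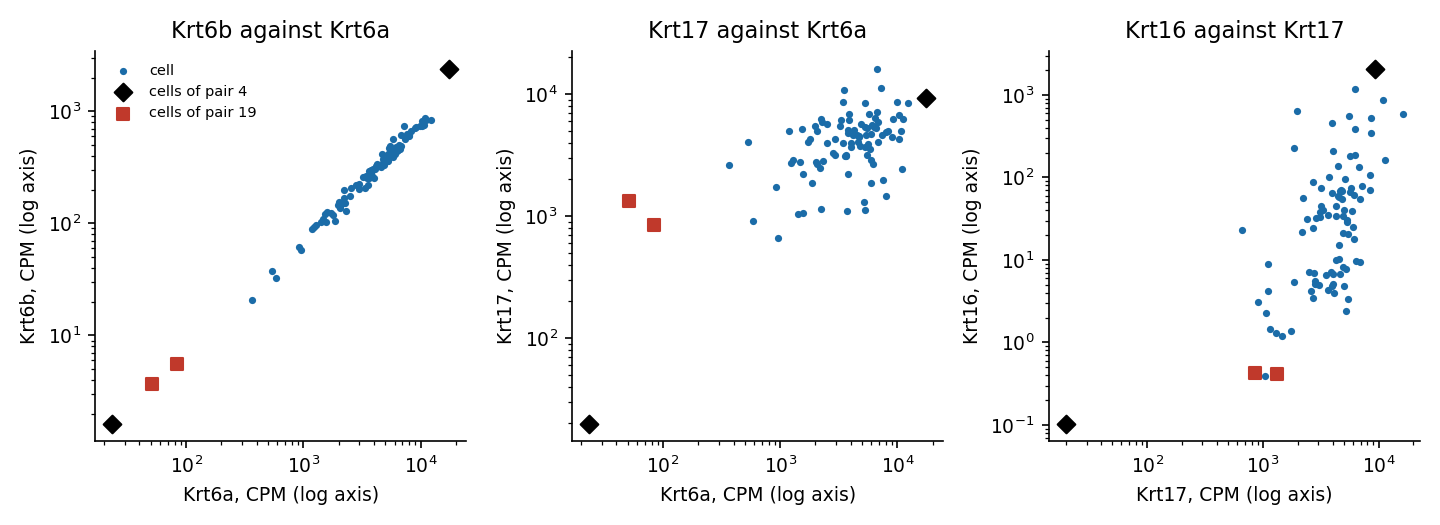
CPM of Krt6b against Krt6a, Krt17 against Krt6a and Krt16 against Krt17 on log axes, 1 point for each of 96 cells, with pair 4 as diamonds and pair 19 as squares. Krt6b and Krt6a fall on a line (rho 0.99), and the other comparisons scatter (rho 0.46 and 0.58).

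The genes most like each member over cells were led by keratin neighbours. For Krt6a they were Krt6b, Gm5478 (rho 0.92), Gm5414 (0.78), Sfn (0.55) and the secreted protease gene Htra1 (0.52). Krt6b had the same list, with Krt6a in the place of Krt6b and rho of 0.92, 0.79, 0.56 and 0.52. Sfn encodes 14-3-3 sigma, a partner of keratins in epithelial cells. For Krt16 they were Gm11597 (0.81), Krt17, the calpain subunit gene Capn2 (0.56), Sfn (0.50) and Gm7850 (0.49). For Krt17 they were its neighbour Krt42 (0.66), Krt14 (0.64), Krt16 and the ribosome biogenesis factor gene Eif6 (0.57). Gm5478 and Gm5414 share sequence windows with Krt6a, and their counts were 0.868% and 0.0958% of those of Krt6a in the median cell. Gm11597 shares windows with Krt16 and was at 1.94% of its counts in the median cell, from a median of 4 counts. Krt42 shared no 75-base window with Krt17 and was at 0.0196% of its counts.

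Over sister differences the lists changed below the copies. Krt6a and Krt6b were followed by Gm5478 (0.82 and 0.78), Gm5414 (0.72 and 0.70) and Krt5 (0.64 and 0.62), and then by Krt76 for Krt6a (0.59) and Gm12715 for Krt6b (0.60). Krt16 was followed by Gm11597 (0.73), Gm45515 (0.50), the kinase anchor gene Akap10 (0.50), Hsp25-ps1 (0.49) and Gm17029 (0.49). Without pair 4 these values were 0.71, 0.46, 0.47, 0.47 and 0.45. Krt17 was followed by Capg (0.55), which caps actin filaments, Arap1 (0.51), Gm8894 (0.51), Krt19 (0.51) and the hyaluronidase gene Hyal1 (0.51). Some of these genes were near the floor, with a median of 0 TPM for Gm45515 and Gm17029, 0.045 for Krt76 and 0.28 for Arap1. The share of all genes that reach such values over sister differences was not computed, so these ranks are descriptions only. The sister with more Krt5 was the higher one in 32 of 48 pairs for Krt6a (66.7%, interval 51.6% to 79.6%), in 35 for Krt6b, in 27 for Krt16 and in 33 for Krt17.

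Basal cell genes ran with the stress keratins. All 8 genes of a list of basal cell genes were positive with all 4 members, with a median rho of 0.38 for Krt6a, 0.38 for Krt6b, 0.26 for Krt16 and 0.28 for Krt17. The median over all other genes was -0.00564, -0.00168, 0.00848 and -0.00564. Krt14 reached 0.5 with Krt6a (0.51) and Krt17 (0.64), 1 gene of the 8 in each case, where 0.0553% and 0.0484% of 14462 genes reached it. No gene of the list reached it with Krt6b, where 0.0484% of genes did, or with Krt16, where 0.0277% did. Trp63 itself was at 0.29, 0.29, 0.19 and 0.16.

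Wound-edge genes had lower medians. Of 27 listed wound-edge genes 19 passed the count filter, and their median rho was 0.10 for Krt6a, 0.11 for Krt6b, 0.12 for Krt16 and 0.11 for Krt17. Plau, which encodes urokinase, was at 0.48 with Krt16, and Plaur, which encodes the urokinase receptor, was at 0.32 with Krt6a and Krt6b. Of 16 transcription factors known to act on stress keratin genes 14 passed the filter, and none reached 0.5. The highest was the AP-1 subunit gene Fosl1, at 0.42 with Krt6a and Krt6b and 0.30 with Krt17, while with Krt16 it was Trp63 (0.19). The lowest was Nfe2l2, which encodes Nrf2, at -0.29 with Krt6a and Krt6b.

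Among 16 partners of keratin filaments, all past the filter, Sfn was the 1 gene at 0.5 with Krt6a, Krt6b and Krt16, and medians were 0.19, 0.19, 0.23 and 0.21. Without pair 4 Sfn was at 0.52 with Krt6a, 0.53 with Krt6b and 0.47 with Krt16, and the medians were 0.15, 0.15, 0.19 and 0.16. The desmosome plaque gene Pkp1 followed for Krt6a (0.47) and Evpl, which encodes envoplakin, for Krt16 (0.47). Of 23 squamous differentiation genes 16 passed, with medians of 0.093, 0.12, 0.14 and 0.27 and none at 0.5. The transglutaminase gene Tgm1 was the highest, at 0.35 with Krt6a, 0.35 with Krt6b, 0.44 with Krt16 and 0.41 with Krt17.

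Mitosis genes had the opposite sign. The 16 mitosis genes were all negative with Krt6a, Krt6b and Krt16, and 15 of 16 were with Krt17. Their median rho was -0.25, -0.25, -0.22 and -0.17, and none reached -0.5. The genes at -0.5 or lower were 0.00691% of all genes for Krt6a, 0% for Krt6b, 0.0207% for Krt16 and 0.0207% for Krt17. The cyclin gene Ccnb2 was the lowest with Krt6a, at -0.38. The 16 S phase genes had medians of 0.099, 0.096, 0.12 and 0.00077, none past 0.5 in either direction. The mitochondrial share of a library had a rho of -0.37 with Krt6a and Krt6b and of -0.45 with Krt16 and Krt17, and its part in these correlations was not tested.

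**Figure D5:**
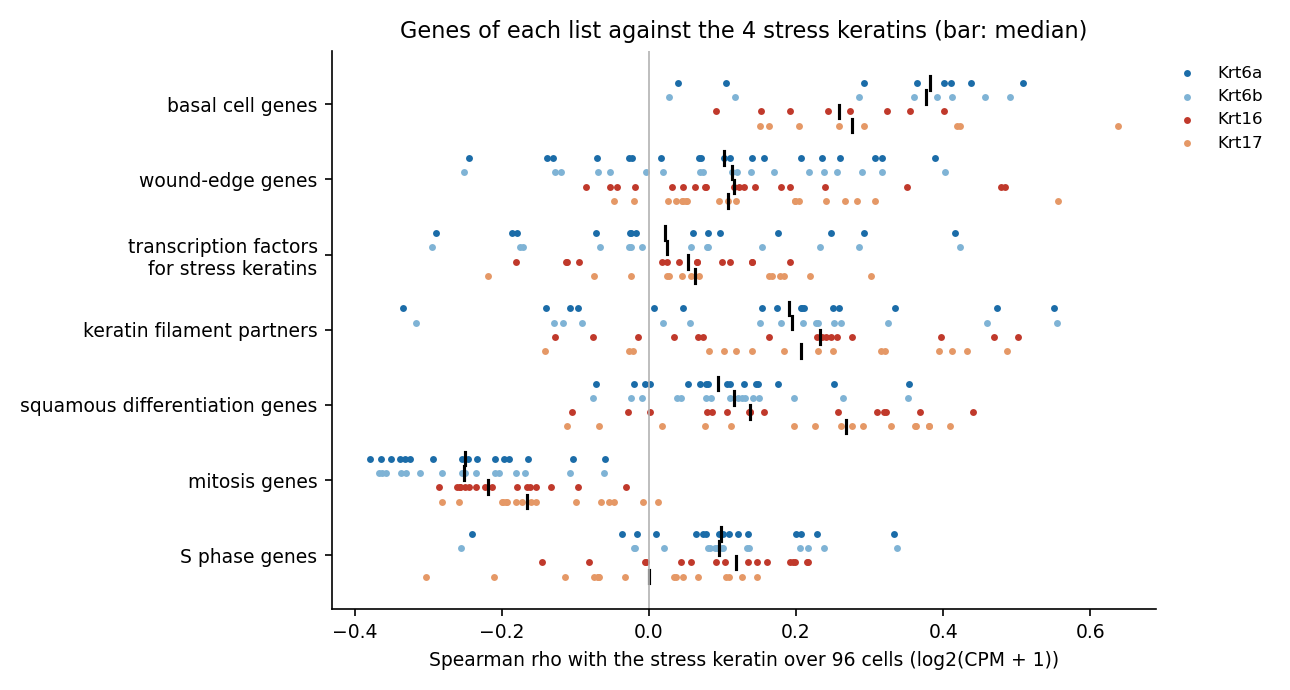
Spearman rho over 96 cells between each member, in its own colour, and the genes of 7 lists that passed the count filter, 1 point per gene with the median as a bar. Basal cell genes lie above 0 for all members, with medians of 0.26 to 0.38, and mitosis genes lie below 0 except for 1 gene with Krt17.

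The study read sisters by the expression cluster of each cell, by histone H3.3 and by p63. It reported Krt16 among genes that differed between the clusters it called activated and renewed HBCs. Those cluster calls were not used here, and the members were set against H3.3 and p63. In the pairs the study called asymmetric in H3f3a or H3f3b, it reported that the daughter with more H3.3 preferentially expressed wound-response genes, including Krt16. The counts here are over all 48 pairs, a different set. The sister with more H3.3 transcripts (H3f3a and H3f3b summed) had more Krt6a in 22 of 48 pairs (45.8%, interval 31.4% to 60.8%), more Krt6b in 25, more Krt16 in 23 and more Krt17 in 23. The sister with more Trp63 had more Krt6a in 26 pairs (54.2%, interval 39.2% to 68.6%) and more Krt6b, Krt16 and Krt17 in 27 pairs each. All 8 intervals include 50%. The sister with more Mki67 had more Krt6a in 24 pairs and more of each of the other 3 in 25. At 48 pairs an even split and a moderate excess could not be told apart for any of these. In the 24 pairs at 1.5-fold in H3f3a or H3f3b, the sister with more H3.3 had more Krt16 in 13. It had more Krt6a in 10, more Krt6b in 11 and more Krt17 in 12. The study called fewer pairs asymmetric, so these are not its pairs.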

How the data were processed

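Both daughters of 48 HBC divisions were sequenced by G&T-seq, with paired-end reads of 150 bases. Per the labels and the study's methods, the authors trimmed reads with Trimmomatic 0.39, aligned them with STAR 2.7.11a to GRCm38 (Ensembl release 100) with ERCC sequences, and made gene counts and TPM with StringTie 2.2.1. How reads with several alignments were counted is not given in the sources used here. The deposited count matrix holds whole-number counts that are not normalized, and the deposited TPM files, 1 per cell, hold values scaled for length and library. All count columns matched a sample.

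From these, with Python 3.11.15, numpy 2.4.6, pandas 2.3.3 and scipy 1.17.1, each cell was scaled by a median-of-ratios size factor taken from the 22 ERCC transcripts that no cell lacked, as the study scaled to ERCC, and ratios between sisters used normalized counts plus 1. Correlations and intraclass correlations used log2(CPM + 1), over the 14463 genes left by a filter that asked for 10 counts in 10 cells. The functions for ratios between sisters, correlations and intraclass correlations were tested on simulated data. Depth was 29454150 to 44849003 gene counts, and reads carry no molecular identifiers. Intervals are exact Clopper-Pearson intervals at 95% that cover the counting of pairs only, since no mouse or culture is given. The cells form 1 group, so no test was run. Sequences came from the GENCODE M21 transcripts of GRCm38, whose coordinates for these genes equal those in the deposited files.

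Named genes were the 4 members, the 10 keratins of highest median TPM, the 5 genes most like each member over cells and over sister differences, and up to 4 genes per list by absolute rho. A gene that this rule names is not reported here. Pairs 4, 19 and 46, and the other genes given for them, were singled out after their values were seen. The members and the gene lists were chosen with earlier results of these data known. The alternatives were other scalings, pseudocounts, a cutoff of 2, Pearson correlation, centring on the 12 sets and leaving out pairs.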

Additional observations from a re-analysis of the deposited data

How the results depend on the processing

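Of 210 recomputed values for 37 results, 198 stayed within the 95% interval or SD of the main value and 12 moved. Median ratios were judged by the SD of the log2 ratios over pairs, and keratin shares by the SD over cells. These are so wide that the 26 and 10 values judged by them, of which none moved, could hardly have moved. They say little about robustness. The intervals used for the other results are wide too. Values within the intervals include intraclass correlations of 0.12 for Krt6a and 0.10 for Krt6b without pair 19. They also include 0.097 for Krt16 centred on sets, where the centring by itself lowers the value. At a cutoff of 2 the share of pairs was 27.1% for Krt6a and 10.4% for Krt17. Without pair 4, an alternative chosen after seeing the data, the intraclass correlation was 0.71 for Krt6a, 0.69 for Krt6b and 0.79 for Krt17. Over sister differences, Pearson's r on log2 values was 0.99 for Krt6a and Krt6b, 0.51 for Krt6a and Krt16, 0.85 for Krt6a and Krt17, 0.50 for Krt6b and Krt16, 0.85 for Krt6b and Krt17 and 0.58 for Krt16 and Krt17. Without pair 4, r was 0.98, 0.14, 0.49, 0.14, 0.48 and 0.23. Over all settings the median ratio of Krt16 ran from 2.92 to 3.90, that of Krt6a from 1.39 to 1.44, that of Krt6b from 1.39 to 1.44 and that of Krt17 from 1.34 to 1.40. The sister of higher H3.3 had more of a member in 37.5% to 54.2% of pairs over all settings, on both sides of 50%, and the sister of higher Trp63 in 52.1% to 64.6%.

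Depth does not limit the counts of Krt6a, Krt6b and Krt17, of which the lowest cell had 905, 63 and 769. For Krt16, counts as low as 4 leave the largest ratios poorly bounded. The number of pairs, 48, sets the width of every interval, and with no mouse or culture given, none of the values can be carried to other animals.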

Other observations

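The gene most opposite to Krt16 over cells was Ly6c2 (rho -0.55), followed by its neighbour Ly6c1 (-0.55), and for Krt17 these were Ly6c1 (-0.54) and Ly6c2 (-0.53). Both encode small surface proteins of the Ly6 family, share much of their sequence, and were chosen here after their values were seen. Ly6c1 had a median of 499.5 TPM, so it was an abundant transcript of these cells. Without pair 4 the values for Ly6c1 were -0.55 with Krt16 and -0.54 with Krt17.

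The difference in Krt16 between sisters had a rho of 0.48 with that in Hspb1, which encodes the small heat shock protein Hsp25. With its pseudogene Hsp25-ps1 rho was 0.49. Without pair 4 the values were 0.45 and 0.47. Hspb1 was at place 6 among all genes and was chosen here after its value was seen. Reads that the gene and its pseudogene could share were not examined.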
